A study of Mus musculus with 13 samples.

Results

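The genes described here make, import, store and export cholesterol. All 34 listed genes were measured, out of 14911 in the table. They were chosen by symbol from knowledge of the pathway, with earlier results of these data already known. The comparison asked how the messenger RNA of injured muscle differs under a glucocorticoid. Whole hamstring muscle came from female C57BL/6 mice 4 days after an intramuscular injection of cardiotoxin at 0.32 mg/kg, a toxin from snake venom that kills muscle fibres. The 9 dexamethasone mice received daily intraperitoneal dexamethasone, a synthetic glucocorticoid, at 10 mg/kg, and the 4 saline mice received daily saline. All 13 mice had the injury, so every library shows regenerating muscle. The submitters report bone in the injured muscle of every dexamethasone mouse and left out 1 saline mouse in which bone had formed. The drug and bone formation therefore cannot be told apart. Each library came from 1 mouse, numbered as in the labels.

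Cholesterol is built from acetyl-CoA through mevalonate, farnesyl diphosphate and squalene. Its level is sensed in the endoplasmic reticulum, where the escort protein SCAP carries the transcription factors SREBP-1 and SREBP-2 to the Golgi for cleavage when sterol is low, and the INSIG proteins hold them back when sterol is high. Cleaved SREBP-2 mainly drives synthesis and uptake genes, and SREBP-1c mainly drives fatty acid synthesis. When oxysterols accumulate, the liver X receptors (LXR) switch on export through the ABC transporters. In muscle after injury, macrophages clear the cholesterol-rich membranes of dead fibres, and growing myofibres and dividing cells need new membrane.

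Sterol genes did not move as 1 block. The later enzymes, from squalene epoxidase onwards, mostly rose in dexamethasone mice, while the early mevalonate enzymes showed no rise that passed the main test. The early enzymes Idi1 and Hmgcs1 passed as higher in some alternative fits. Early and later enzymes were not compared by a test. Genes of both SREBP factors and of the sterol sensor INSIG1 rose, as did Npc1 (lysosomal export), Stard4 (sterol transfer) and Soat1 (esterification). Npc2, the partner of Npc1, did not pass. In the export arm, Nr1h3 and Ch25h rose, Abcg1 and Apoe fell, and Abca1 did not pass. The results for Abcg1, Apoe and Abca1 each changed in at least 1 fit on a subset of 8 mice, as given for each gene. In all, 14 of 34 genes were higher and 5 lower at a threshold of 0.05 on limma's p adjusted over all genes (Benjamini-Hochberg), with 25.2% of all genes called higher and 22.9% called lower. The share called in either direction was 55.9% of the sterol genes against 48.1% of all genes. The median log2 fold change, dexamethasone minus saline, was 0.21 over the 34 genes and 0.0071 over all genes. Apart from Ch25h, the called genes differed by 1.19- to 1.63-fold. The groups did not overlap in 10 of the 34, of which 9 were higher and 1 lower, against 25.8% of all genes, 12.9% in each direction. With the mean of 12 macrophage markers as a covariate, 5 sterol genes were higher and 2 lower, and with the mean of 12 mature myofibre markers 4 were higher and 2 lower, while calls over all genes dropped to 3219 and 2974. Those covariates differ between the groups themselves. In the macrophage fit Hsd17b7, Sc5d, Srebf1, Stard4 and Nr1h3 were higher and Npc2 and Apoe lower, and in the myofibre fit Fdft1, Hsd17b7, Npc1 and Nr1h3 were higher and Abcg1 and Apoe lower. The other calls ended in each fit.

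**Figure D1:**
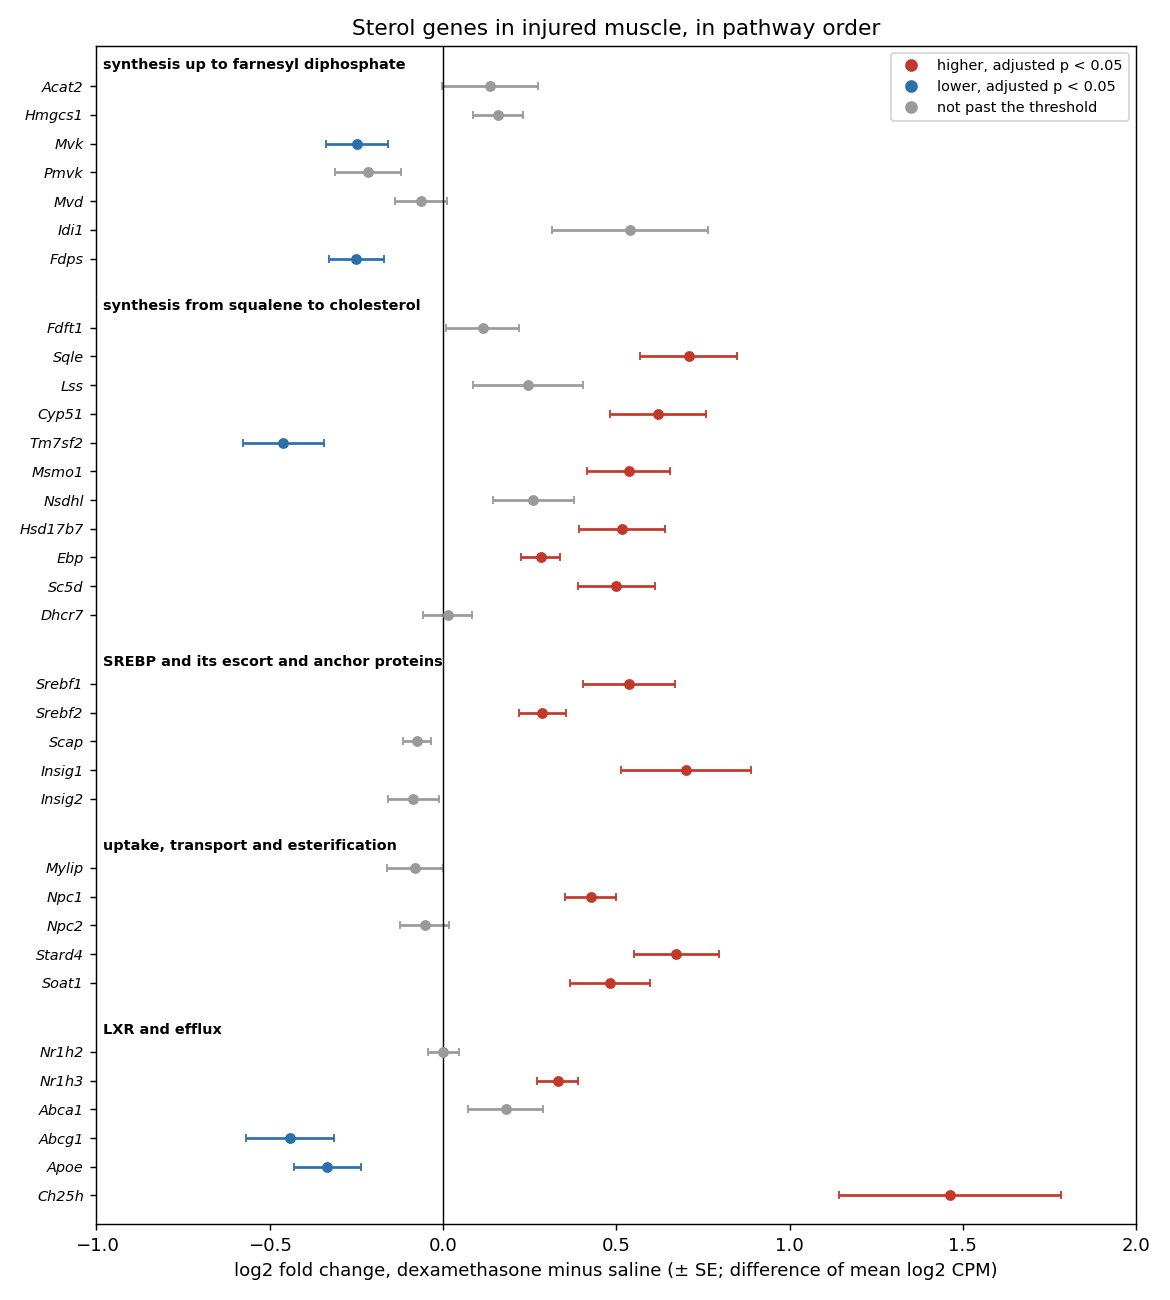
Log2 fold change (dexamethasone minus saline, x axis) of the 34 sterol genes in pathway order (y axis), with bars of 1 SE; red points passed as higher, blue as lower and grey did not pass. From Sqle to Sc5d 6 enzymes lie to the right and Tm7sf2 to the left, and none of the 7 early enzymes is red.

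Depth and cell markers bear on what follows. The deposited values gave back 28021111 to 34942266 reads per dexamethasone library and 25531487 to 32537345 per saline library. Each listed marker had reads in every library except Ly6g, which was not analysed here. The 12 macrophage markers summed to 2713 to 3686 CPM (counts scaled to library size) in dexamethasone mice and 2199 to 3208 in saline mice. Of these 12, 5 rose (41.7%), led by Cd163 and Mrc1, and Csf1r fell (8.33%), against 25.2% and 22.9% of all genes. Of 8 adipocyte markers 6 rose (75.0%), with sums of 1135 to 2303 CPM in dexamethasone mice and 923 to 1517 in saline mice. All 10 proliferation markers rose, and all 10 lymphocyte markers fell. Mature myofibre markers, at 86997 to 129932 CPM in dexamethasone mice and 132873 to 197711 in saline mice, fell in 5 of 12 (41.7%). Of 10 Schwann cell markers, cells that make much cholesterol for myelin, 2 rose and 2 fell. That was 20.0% each way, below the 25.2% and 22.9% of all genes. Of 9 fibro-adipogenic progenitor markers 3 fell (33.3%) and 0 rose, and of 7 endothelial markers 1 fell (14.3%) and 0 rose. Of 8 satellite cell and myoblast markers 2 rose and 2 fell (25.0% each way). Of 8 measured neutrophil markers 1 rose and 2 fell (12.5% and 25.0%). The satellite cell shares and the neutrophil share that fell were near those of all genes. Neutrophil markers summed to 31.3 to 62.0 CPM in dexamethasone mice and 31.0 to 347 in saline mice, with saline mouse 3 at the top. The part of these cell types in the sterol genes was not tested beyond the covariates. In bulk tissue, fewer cells of a type and less RNA per cell cannot be told apart.

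The early pathway runs from acetyl-CoA to farnesyl diphosphate. Of its 7 enzymes 0 rose and 2 fell (28.6%, against 22.9% of all genes called lower), with a median log2 fold change of -0.064. Fdps, farnesyl diphosphate synthase, ranged from 4.21 to 4.68 log2 CPM with a median of 4.50 in dexamethasone mice, and stood at 4.72, 4.63, 4.68 and 4.84 in saline mice 1, 2, 3 and 5. Of the 9 dexamethasone mice 8 were below every saline mouse. Fdps fell by 0.25 on the log2 scale, with an SE of 0.079 (limma, adjusted p 0.0161), a call that ended without saline mouse 5 (adjusted p 0.0582). Mvk, mevalonate kinase, ranged from 3.38 to 3.85 with a median of 3.61 log2 CPM in dexamethasone mice, against 3.63, 4.02, 4.00 and 3.80 in saline mice. The groups overlapped, with 5 of 9 dexamethasone mice below every saline mouse, and the fall of 0.25 passed with an adjusted p of 0.0303. That call ended without saline mouse 2 (adjusted p 0.119) or 3 (adjusted p 0.111).

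Hmgcs1, the cytosolic synthase that makes HMG-CoA and a classical SREBP-2 target, ranged from 5.22 to 5.61 with a median of 5.51 log2 CPM in dexamethasone mice, against 5.48, 5.29, 5.31 and 5.22 in saline mice. Dexamethasone mouse 5 and saline mouse 5 shared the lowest level, and saline mice 1, 2 and 3 lay inside the dexamethasone range. The log2 fold change was 0.16 ± 0.072 (SE; limma, adjusted p 0.0816). It passed without saline mouse 1 (0.21, adjusted p 0.0358) or without dexamethasone mouse 5 (0.19, adjusted p 0.0210). Idi1, the isomerase that yields dimethylallyl diphosphate, had 50 to 127 reads in dexamethasone mice and 25 to 72 in saline mice. Its log2 CPM spanned 0.79 to 1.93 with a median of 1.22 in dexamethasone mice, against 1.00, 0.08, 0.70 and 1.15 in saline mice. All 9 dexamethasone mice were above the saline mean, but the groups overlapped and the log2 fold change of 0.54 ± 0.22 did not pass (adjusted p 0.0588). It passed without dexamethasone mouse 6 (adjusted p 0.0377) or saline mouse 5 (adjusted p 0.0324). Pmvk, the next kinase after Mvk, spanned 3.23 to 3.76 with a median of 3.55 log2 CPM in dexamethasone mice, against 3.90, 3.53, 3.69 and 3.72 in saline mice. Its log2 fold change was -0.22 ± 0.096 (adjusted p 0.0751), and it passed as lower without dexamethasone mouse 3 or saline mouse 2. Mvd, the decarboxylase, and Acat2, the thiolase of the opening step, had log2 fold changes of -0.064 and 0.14 with adjusted p values of 0.51 and 0.441. Acat2 has a closely similar neighbour in the mouse genome, Acat3, so reads between them are uncertain.

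The later pathway turns farnesyl diphosphate into squalene, closes the rings and trims lanosterol to cholesterol. Of its 11 enzymes 6 rose and 1 fell (54.5% and 9.09%, against 25.2% and 22.9% of all genes). The median log2 fold change was 0.28. Sqle (Entrez 20775, mm10 chromosome 15, 59315092 to 59331193) encodes squalene epoxidase, which inserts the oxygen before ring closure. Its level ranged from 2.97 to 3.92 with a median of 3.34 log2 CPM in dexamethasone mice, against 2.43, 2.49, 2.59 and 2.93 in saline mice. Every dexamethasone mouse lay above every saline mouse, though saline mouse 5 came close. Sqle was 1.63-fold higher (log2 difference 0.71 ± 0.14, SE; adjusted p 0.000657).

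Cyp51 (Entrez 13121, chromosome 5, 4080674 to 4104697) encodes lanosterol 14-alpha-demethylase. Dexamethasone mice held 3.68 to 4.61 log2 CPM, with a median of 4.06, and saline mice 3.51, 3.10, 3.42 and 3.52. The groups did not overlap, and the gene was 1.54-fold higher (adjusted p 0.00172). Ebp, the sterol isomerase, varied little within groups: 4.33 to 4.56 with a median of 4.47 log2 CPM in dexamethasone mice, against 4.04, 4.19, 4.22 and 4.21 in saline mice. Its rise of 1.22-fold was small but separated all mice (adjusted p 0.000765). Sc5d, the desaturase of the following step, ranged from 4.30 to 4.87 with a median of 4.48 log2 CPM in dexamethasone mice, against 4.35, 4.07, 3.80 and 3.78 in saline mice. Saline mouse 1 reached into the dexamethasone range, and the rise was 1.41-fold (adjusted p 0.00175).

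Msmo1, the C4-methyl oxidase, and Hsd17b7, a keto-reductase of the same demethylation complex, rose 1.45- and 1.43-fold (adjusted p 0.00176 and 0.00286), with 8 and 7 of 9 dexamethasone mice above every saline mouse. Tm7sf2, a sterol C14-reductase, went the other way, and was picked for per-mouse values after these were seen. It spanned 1.63 to 2.14 log2 CPM in dexamethasone mice, against 2.56, 2.61, 2.28 and 2.17 in saline mice. All 9 dexamethasone mice were below every saline mouse, and the gene was 1.38-fold lower (adjusted p 0.00444). Tm7sf2 shares 532 exon bases with Vps51 on the same strand, 12.1% of its exons, and Vps51 itself differed by -0.087 on the log2 scale (adjusted p 0.191). The remaining 4 enzymes did not pass: Fdft1, squalene synthase, at 0.11, Lss, which closes the rings, at 0.24, Nsdhl at 0.26 and Dhcr7, the closing reductase, at 0.013 on the log2 scale. Nsdhl passed without saline mouse 1 (0.36, adjusted p 0.0239) or dexamethasone mouse 8 (0.30, adjusted p 0.0331). Fdft1 shares 774 exon bases with Ctsb on the other strand, and the strand setting of the read counting is not given in the sources used here.

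Of the 6 enzymes that rose, Hsd17b7 and Sc5d passed with the macrophage covariate, and Hsd17b7 alone with the myofibre covariate. With the macrophage covariate the log2 difference was 0.23 for Sqle (adjusted p 0.34), 0.35 for Cyp51 (adjusted p 0.249), 0.36 for Msmo1 (adjusted p 0.186) and 0.23 for Ebp (adjusted p 0.0817).

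**Figure D2:**
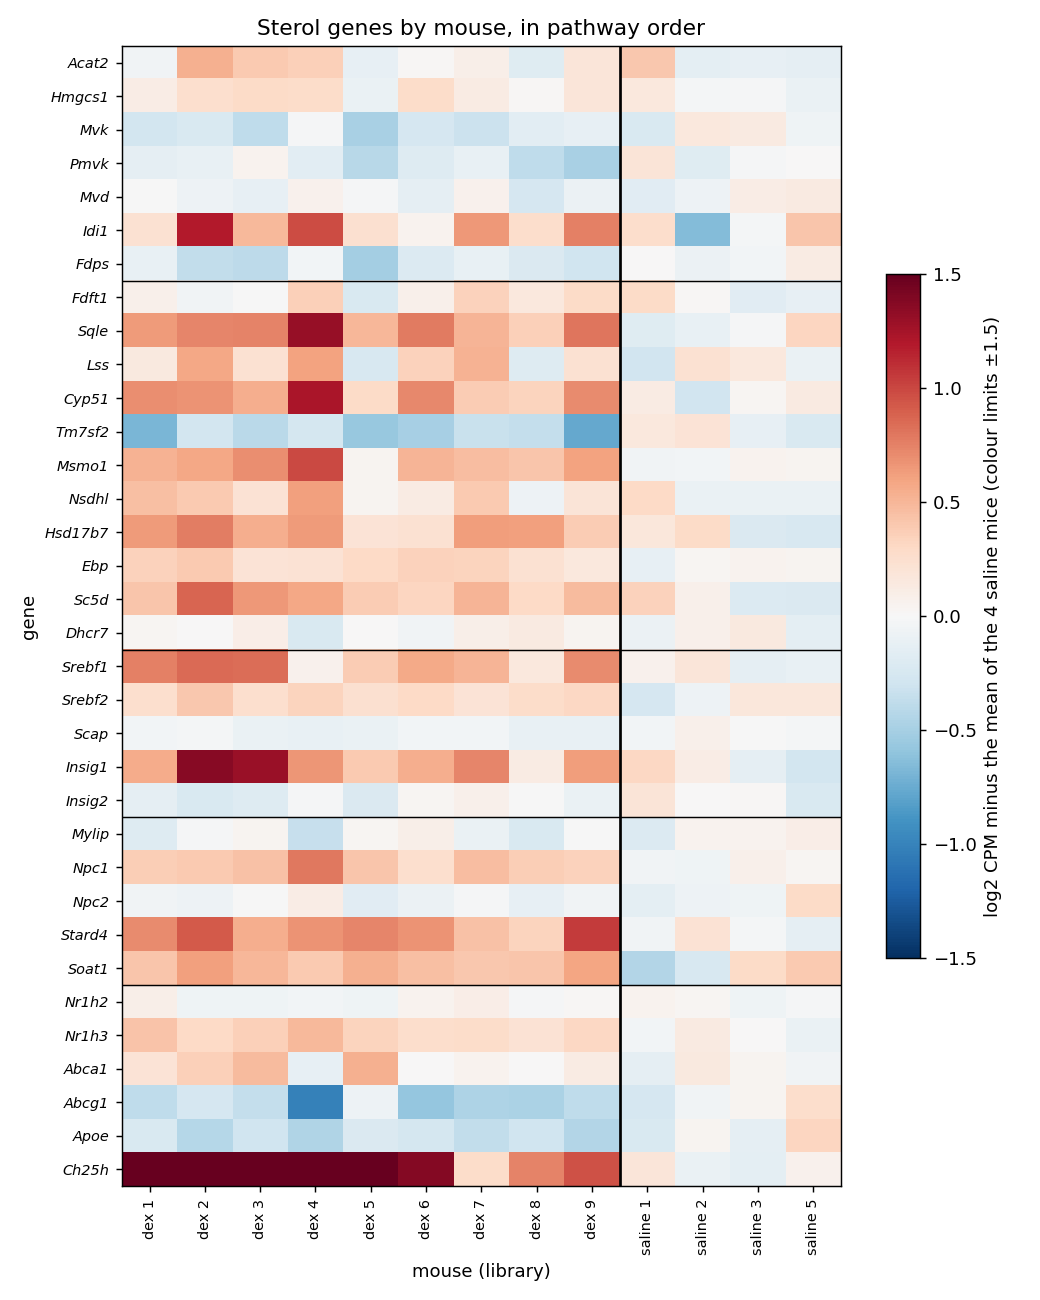
Log2 CPM minus the mean of the 4 saline mice (colour) for each of the 34 genes (rows, in pathway order) and each mouse (columns, dexamethasone left, saline right). The rows from Sqle to Sc5d are mostly red in dexamethasone mice apart from Tm7sf2, whose 9 values are blue, and mouse 4 has the strongest red for Sqle and Cyp51.

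Mice of the dexamethasone group differed among themselves in synthesis. The mean over all 18 enzymes ranged from 3.39 log2 CPM in dexamethasone mouse 5 to 3.85 in mouse 4, with a median of 3.61, against a mean of 3.43 over the 4 saline mice. Mouse 4 was the highest of its group in 9 of 18 enzymes, and mouse 5 the lowest in 8 of 18. Mouse 4 was also the highest for 17.5% of all genes and the lowest for 16.6%, so its extreme values were not limited to sterol genes. Without mouse 4 the log2 fold changes of Sqle and Cyp51 were 0.63 and 0.55 and both still passed. Among the 9 dexamethasone mice, Hmgcs1 and Sqle had a Pearson r of 0.68 (exact permutation p 0.0445, adjusted p 0.0811 over 4 gene pairs) and a Spearman rho of 0.77 (exact permutation p 0.0214, adjusted p 0.0428). Without mice 5 and 8, farthest from the Hmgcs1 median, r was 0.57 over 7 mice. Hmgcs1 and Insig1 had an r of 0.65 (exact permutation p 0.0608, adjusted p 0.0811) and a rho of 0.60 (exact permutation p 0.0968, adjusted p 0.129), and r was 0.43 without the same 2 mice.

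Promoter letters show what the synthesis genes share in sequence. RefSeq windows of build GRCm38.p6 (mm10) were matched by symbol for 28 of 34 genes, and the 250 bases before each annotated start were searched on both strands. Those shown are a classical SREBP target whose level did not pass (Hmgcs1), 3 genes that rose (Insig1, Cyp51, Msmo1) and 1 that fell (Mvk). Capitals mark CCAAT or its reverse ATTGG, the NF-Y motif known from sterol genes, and TCACNCCAC, the core of the sterol regulatory element. The windows are chr13:119690101-119690350 (plus strand), chr5:28071162-28071411 (plus strand), chr5:4104698-4104947 (minus strand), chr8:64733579-64733828 (minus strand) and chr5:114444019-114444268 (plus strand), each printed 5′ to 3′ along its gene.
Hmgcs1: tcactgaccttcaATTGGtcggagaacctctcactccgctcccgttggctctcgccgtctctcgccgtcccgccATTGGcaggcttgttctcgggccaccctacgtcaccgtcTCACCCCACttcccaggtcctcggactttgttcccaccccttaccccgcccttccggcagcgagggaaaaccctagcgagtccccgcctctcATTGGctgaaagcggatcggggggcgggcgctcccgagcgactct
Insig1: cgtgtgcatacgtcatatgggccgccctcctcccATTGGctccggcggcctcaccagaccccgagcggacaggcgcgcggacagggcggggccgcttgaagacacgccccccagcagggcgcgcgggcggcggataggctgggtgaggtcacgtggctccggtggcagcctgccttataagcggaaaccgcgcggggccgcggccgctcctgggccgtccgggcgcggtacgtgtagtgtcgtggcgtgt
Cyp51: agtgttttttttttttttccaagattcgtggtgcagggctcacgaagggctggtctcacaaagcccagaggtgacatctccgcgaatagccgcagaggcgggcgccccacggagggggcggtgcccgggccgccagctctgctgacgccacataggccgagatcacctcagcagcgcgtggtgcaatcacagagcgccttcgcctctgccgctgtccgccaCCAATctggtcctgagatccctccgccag
Msmo1: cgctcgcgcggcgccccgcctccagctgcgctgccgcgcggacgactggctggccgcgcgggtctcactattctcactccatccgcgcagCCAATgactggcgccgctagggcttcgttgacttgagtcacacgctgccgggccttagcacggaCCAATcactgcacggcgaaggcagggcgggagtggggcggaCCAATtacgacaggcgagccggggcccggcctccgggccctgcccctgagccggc
Mvk: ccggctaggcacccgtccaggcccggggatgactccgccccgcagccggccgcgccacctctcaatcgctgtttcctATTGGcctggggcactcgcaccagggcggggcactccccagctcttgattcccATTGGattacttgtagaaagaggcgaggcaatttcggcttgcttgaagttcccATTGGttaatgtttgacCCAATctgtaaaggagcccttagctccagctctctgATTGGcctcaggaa
CCAAT occurred in 21 of the 28 sterol genes with a window, or 75.0%, and in 14 of 15 synthesis enzymes, against 37.5% of 27025 genes. Genes that rose and genes that fell both carried it: the Mvk window holds 5 copies, 4 of them as ATTGG at intervals of 53 bases, and the Msmo1 window 3. TCACNCCAC occurred in 1 of 28, the Hmgcs1 window, against 1.22% of all genes. The E-box CACGTG, its own reverse complement, occurred in 6 of 28 against 6.86%. A liver X receptor element (AGGTCA repeated after any 4 bases) and a glucocorticoid element (GNACA, any 3 bases, then TGTNC) were in 0 of 28, against 0.0148% and 0.44% of all genes. In the Hmgcs1 window the TCACNCCAC match does not overlap the CCAAT matches. These are matches of letters in short windows, not measured binding.

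The SREBP factors and their partners came next. Of 5 genes 3 rose and 0 fell (60.0% and 0%, against 25.2% and 22.9% of all genes). Srebf2 (Entrez 20788, chromosome 15, 82147269 to 82205379) encodes SREBP-2 and spanned 6.40 to 6.60 with a median of 6.47 log2 CPM in dexamethasone mice, against 5.94, 6.11, 6.36 and 6.37 in saline mice. The dexamethasone mice were tightly grouped above all saline mice, whose spread came from mice 1 and 2. Srebf2 was 1.22-fold higher (log2 difference 0.29 ± 0.068, SE; adjusted p 0.00268), and 0.20 without saline mouse 1 (adjusted p 0.0108). Srebf1 (Entrez 20787, chromosome 11, 60199084 to 60224186), which encodes SREBP-1, spanned 6.52 to 7.31 with a median of 7.03, against 6.52, 6.64, 6.32 and 6.35. Dexamethasone mice 4 and 8 lay within the saline range, and the rise was 1.45-fold (adjusted p 0.0036). The log2 ratio of Srebf1 over Srebf2 averaged 0.52 ± 0.29 in dexamethasone mice and 0.26 ± 0.34 in saline mice (SD, n = 9 and 4; exact permutation, two-sided, p 0.173, adjusted p 0.231 over 4 ratios), so no difference between the responses of both genes was shown.

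Insig1 (Entrez 231070, chromosome 5, 28071412 to 28078662), the anchor that is itself an SREBP target, spanned 4.14 to 5.38 with a median of 4.64 log2 CPM in dexamethasone mice, against 4.32, 4.12, 3.87 and 3.74 in saline mice. Mice 2 and 3 stood highest, at 5.38 and 5.31, and mouse 8 overlapped the saline range. Insig1 was 1.62-fold higher (adjusted p 0.00588). Insig2, the related anchor that is not driven in the same way, differed by -0.086 ± 0.074 on the log2 scale (SE; adjusted p 0.354). The log2 ratio of Insig1 over Insig2 spanned -1.37 to 0.084 with a median of -0.82 in dexamethasone mice, against -1.66 to -1.39 in saline mice, and was higher in 9 of 9 dexamethasone mice than in any saline mouse. The difference of 0.79 between the group means had an exact permutation p of 0.0028, the smallest that 715 splits allow, and an adjusted p of 0.00559. Per kilobase of exon, Insig2 stood at 3.64 and Insig1 at 3.09 log2 CPM per kb in dexamethasone mice, and Insig2 at 3.72 and Insig1 at 2.39 in saline mice. Scap, the escort, spanned 5.54 to 5.63 with a median of 5.55 log2 CPM in dexamethasone mice, against 5.61, 5.73, 5.64 and 5.62 in saline mice. It was below the saline mean in 9 of 9 dexamethasone mice, but the log2 fold change of -0.076 ± 0.040 did not pass (adjusted p 0.128). Under quantile normalisation Scap passed as lower.

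The mean of the adipocyte markers was highest in dexamethasone mice 3 and 2, at 7.73 and 7.52 log2 CPM, the same mice that stood highest for Insig1 and Srebf1. It ranged from 6.55 to 7.73 in dexamethasone mice and from 6.09 to 6.81 in saline mice. The lowest dexamethasone mouse was mouse 8 for the adipocyte mean and for Insig1, and mouse 4 for Srebf1. The part of adipocytes in the rise of Srebf1 and Insig1 was not tested. Of 15 fatty acid synthesis genes of SREBP-1, 7 rose and 0 fell (46.7% and 0%, against 25.2% and 22.9% of all genes). Their median log2 fold change was 0.29. Mid1ip1, an activator of acetyl-CoA carboxylase, rose 1.57-fold (adjusted p 6.99e-05) with no overlap between the groups. Acaca, the carboxylase itself, and Scd1, the stearoyl-CoA desaturase, rose 2.08- and 2.13-fold (adjusted p 0.0042 and 0.00552). Acaca spread widely, from 5.95 to 7.83 log2 CPM in dexamethasone mice, against 5.43 to 6.51 in saline mice.

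**Figure D3:**
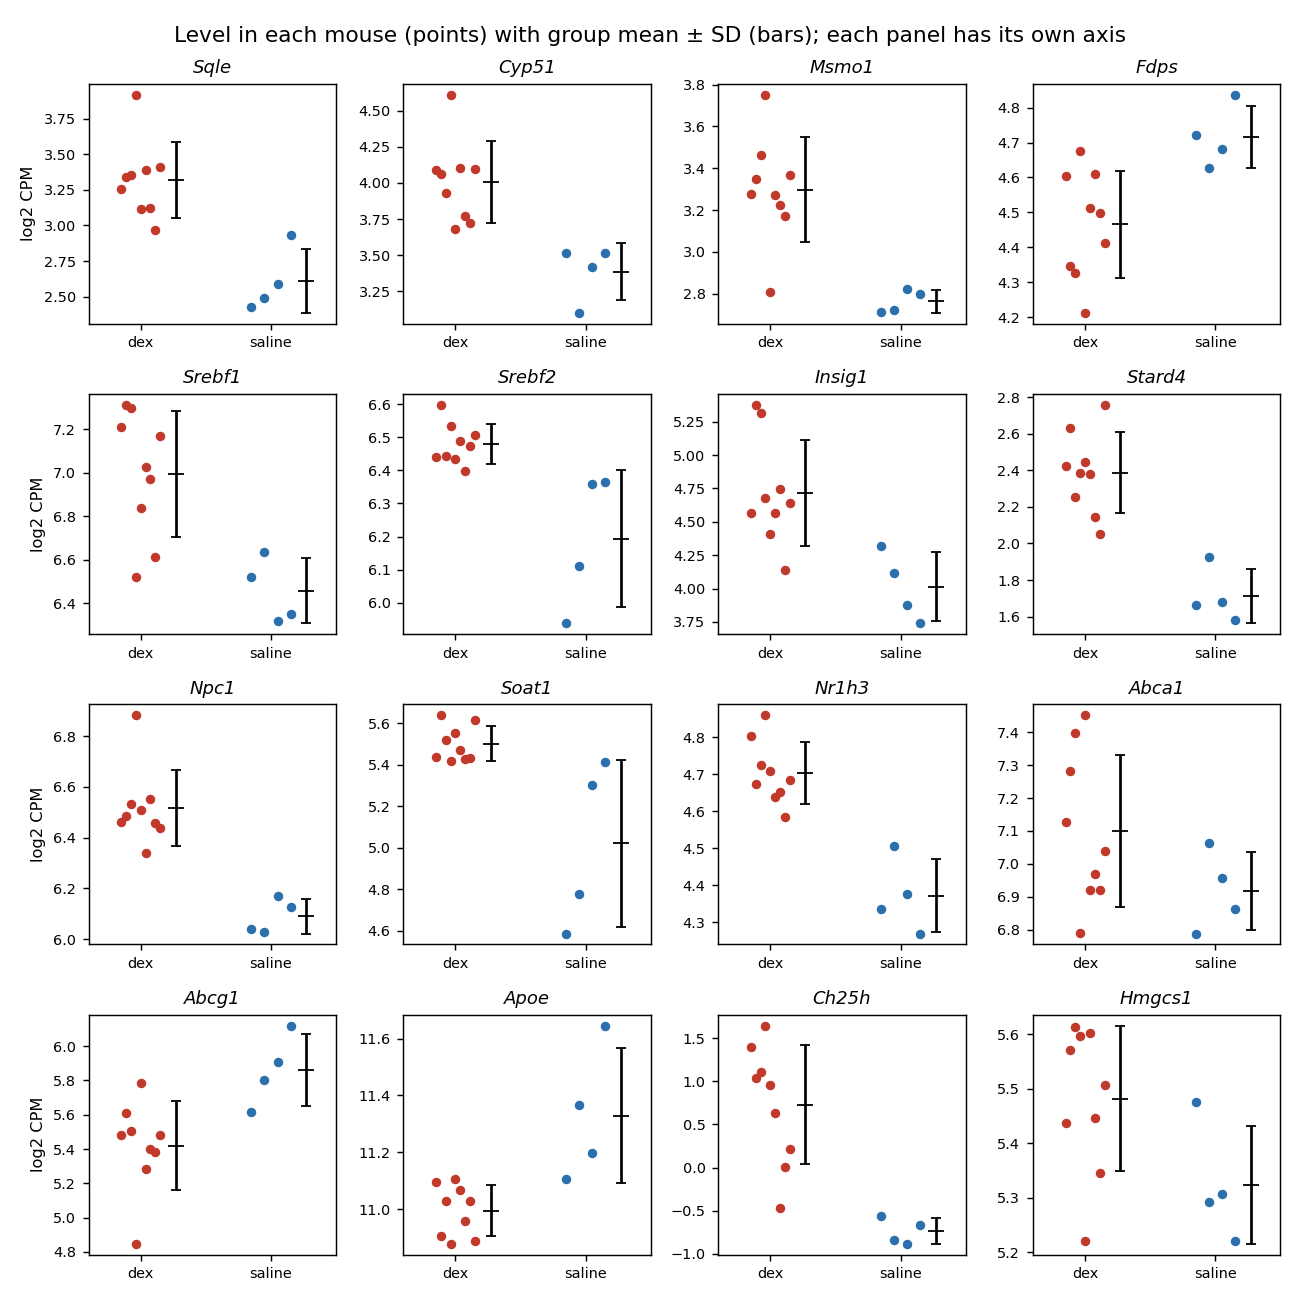
Log2 CPM (y axis, one scale per panel) of 16 sterol genes in each of 9 dexamethasone mice (red, left) and 4 saline mice (blue, right), with the group mean and SD as black bars. Stard4, Npc1, Nr1h3 and Ch25h are among those that separate the groups fully, Abca1 and Hmgcs1 overlap, and Abcg1, Apoe and Fdps lie lower in dexamethasone mice.

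Genes of uptake, transport and storage rose in 3 of 5 cases, and 0 fell (60.0% and 0%, against 25.2% and 22.9% of all genes). Npc1, which moves cholesterol out of lysosomes, spanned 6.34 to 6.88 with a median of 6.48 log2 CPM in dexamethasone mice, against 6.04, 6.03, 6.17 and 6.12 in saline mice. All dexamethasone mice were higher, and the gene rose 1.34-fold (adjusted p 0.000227). Its soluble partner Npc2 differed by -0.052 ± 0.071 on the log2 scale (SE; adjusted p 0.57). With the macrophage covariate Npc2 passed as lower, at -0.31 (adjusted p 0.0118). Stard4, a cytosolic sterol carrier and known SREBP-2 target, spanned 2.05 to 2.76 with a median of 2.39 log2 CPM in dexamethasone mice, against 1.66, 1.93, 1.68 and 1.58 in saline mice. It rose 1.59-fold with no overlap (adjusted p 0.000345). Soat1, which esterifies cholesterol for storage in droplets, spanned 5.42 to 5.64 with a median of 5.47 log2 CPM in dexamethasone mice, against 4.59, 4.78, 5.30 and 5.41 in saline mice. Saline mice 1 and 2 were far lower than saline mice 3 and 5, which came close to the dexamethasone range. Soat1 rose by 0.48 on the log2 scale (adjusted p 0.00298), and by 0.34 without saline mouse 1 (adjusted p 0.0133). The macrophage list mean was 6.70 log2 CPM in saline mouse 1 and 7.25 in saline mouse 5, against 7.22 to 7.54 in dexamethasone mice. With that list as covariate Soat1 and Srebf2 no longer passed, at 0.14 and 0.081 on the log2 scale. Mylip, a ubiquitin ligase induced by LXR that degrades lipoprotein receptors, spanned 5.20 to 5.63 with a median of 5.53 log2 CPM in dexamethasone mice, against 5.33, 5.60, 5.60 and 5.64 in saline mice. The groups overlapped (log2 fold change -0.081 ± 0.080, adjusted p 0.426).

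Receptor genes outside the 34 were counted as well. Of 13 lipoprotein and modified lipoprotein receptor genes 7 rose and 1 fell (53.8% and 7.69%, against 25.2% and 22.9% of all genes). Their median log2 fold change was 0.21. Msr1, the class A scavenger receptor of macrophages, rose 3.18-fold (adjusted p 1.98e-07), Cd36 rose 1.94-fold (adjusted p 2.35e-05) and Lrp1 rose 1.59-fold (adjusted p 1.51e-05), each without overlap between the groups. Of 18 genes of sterol transport and ester turnover 7 rose and 4 fell, with a median of 0.10. Those shares were 38.9% and 22.2%, the second near the 22.9% of all genes called lower. Osbpl8, an oxysterol-binding protein of membrane contacts, rose 1.47-fold (adjusted p 1.37e-05), Tmem97, a sterol-regulated partner of NPC1, 1.64-fold (adjusted p 0.000196) and Nceh1, a cholesteryl ester hydrolase, 1.24-fold (adjusted p 0.000402). Soat2, the second esterifying enzyme, was named after its values were seen. It had 39 to 56 reads in dexamethasone mice and 3, 9, 3 and 12 in saline mice, and the fitted difference of 2.78 on the log2 scale varies with the added offset at such counts (adjusted p 2.62e-06).

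Of 6 LXR and export genes 2 rose and 2 fell, or 33.3% each way, against 25.2% higher and 22.9% lower over all genes. Nr1h3, which encodes LXR-alpha, spanned 4.58 to 4.86 with a median of 4.69 log2 CPM in dexamethasone mice, against 4.34, 4.51, 4.38 and 4.27 in saline mice. All 9 dexamethasone mice were above every saline mouse, and the group mean was 1.26-fold higher (adjusted p 0.000266). Nr1h2, which encodes the broadly expressed LXR-beta, differed by 0.0004 ± 0.045 on the log2 scale (SE; adjusted p 0.995). The log2 ratio of Nr1h3 over Nr1h2 was -1.23 ± 0.11 in dexamethasone mice and -1.56 ± 0.098 in saline mice (SD, n = 9 and 4), higher in 9 of 9, with an exact permutation p of 0.0028 and an adjusted p of 0.00559. Ch25h, which makes the LXR ligand 25-hydroxycholesterol, had 23 to 92 reads in dexamethasone mice and 17, 13, 15 and 20 in saline mice. On the log2 CPM scale that was -0.46 to 1.64 with a median of 0.96, against -0.56, -0.83, -0.88 and -0.67. Mouse 7 was barely above saline and mouse 4 the highest. The fold of 2.76 (adjusted p 0.00149) rests on these low counts, and with the macrophage covariate the log2 difference of 1.46 was 0.82 (adjusted p 0.244).

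Abca1, the transporter that loads lipid-free apolipoprotein, spanned 6.79 to 7.45 with a median of 7.04 log2 CPM in dexamethasone mice, against 6.79, 7.06, 6.96 and 6.86 in saline mice. Mice 5, 3, 2 and 1 stood above the saline range and mouse 4 at its lower end. The log2 fold change of 0.18 ± 0.11 did not pass (adjusted p 0.178). On the 8 mice whose numbers occur in both groups, a choice made after seeing the data, it was 0.39 and passed (adjusted p 0.00352). The dexamethasone mice kept there are 1, 2, 3 and 5, the same ones that stood above the saline range. That fit therefore does not speak for the other dexamethasone mice. Abcg1 (Entrez 11307, chromosome 17, 31057694 to 31117984), which loads high-density lipoprotein, spanned 4.85 to 5.78 with a median of 5.48, against 5.61, 5.81, 5.91 and 6.12. Of the 9 dexamethasone mice 8 were below every saline mouse, with mouse 4 far lower at 4.85. Abcg1 was 1.36-fold lower (adjusted p 0.00951), and its log2 fold change of -0.44 was -0.37 without mouse 4 (adjusted p 0.00396). On the same 8 mice it was -0.27 and the call ended (adjusted p 0.0605). With the mouse number as a replicate block the call held. Apoe (Entrez 11816, chromosome 7, 19696244 to 19701310), the apolipoprotein that macrophages release with exported cholesterol, spanned 10.88 to 11.11 with a median of 11.03 log2 CPM in dexamethasone mice, against 11.10, 11.37, 11.20 and 11.65 in saline mice. It was 1.26-fold lower (adjusted p 0.0096). Without saline mouse 5 the log2 fold change of -0.33 was -0.23 (adjusted p 0.0370), and under quantile normalisation it was -0.042 and the call ended (adjusted p 0.797). The call also ended on the 8 mice, at -0.29 (adjusted p 0.112). Apoe had the highest level per length of the 34, at 9.90 log2 CPM per kb of exon in dexamethasone mice and 10.2 in saline mice.

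Both transporters varied together among the dexamethasone mice. Abca1 and Abcg1 had a Pearson r of 0.83 (exact permutation p 0.000849, adjusted p 0.0034 over 4 gene pairs) and a Spearman rho of 0.97 (exact permutation p 0.000165, adjusted p 0.000661) over 9 mice. Without mice 3 and 5, farthest from the Abca1 median, r was 0.85 over 7 mice, but without mouse 5 alone r was 0.76 and the adjusted p 0.0731. Within that group mouse 5 was highest and mouse 4 lowest for both genes. Hmgcs1 and Abca1 had an r of -0.27 (exact permutation p 0.48, adjusted p 0.48) and a rho of -0.13 (exact permutation p 0.744, adjusted p 0.744), and an r of 0.10 without mice 5 and 8. The log2 ratio of Abca1 over Hmgcs1 averaged 1.62 ± 0.30 in dexamethasone mice and 1.59 ± 0.20 in saline mice (SD, n = 9 and 4; exact permutation p 0.94, adjusted p 0.94).

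**Figure D4:**
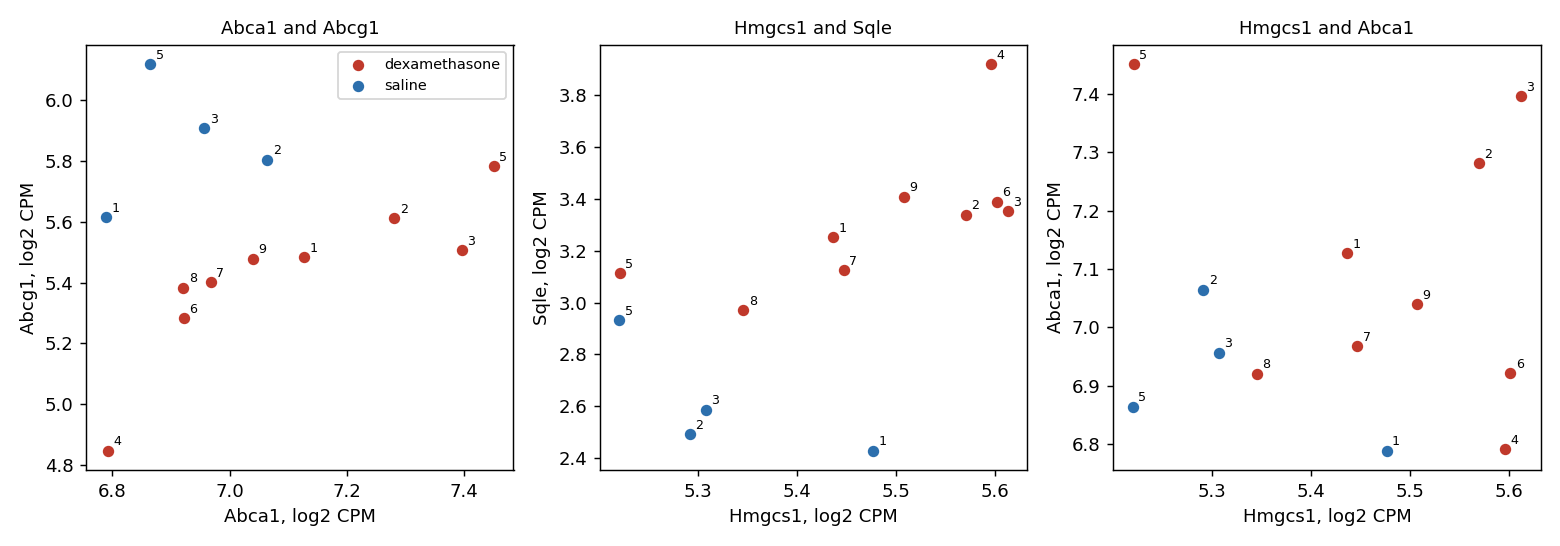
Log2 CPM of Abca1 and Abcg1, Hmgcs1 and Sqle, and Hmgcs1 and Abca1 (x and y axes), 1 point per mouse with its number, dexamethasone in red and saline in blue. Dexamethasone mice lie along a rising line for Abca1 and Abcg1 (Pearson r of 0.83 over 9 mice), below the saline mice of like Abca1 level.

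Of 12 other LXR targets 3 rose and 1 fell, with a median log2 fold change of 0.18. The share that rose, 25.0%, was near the 25.2% of all genes. Lpcat3, a phospholipid remodelling enzyme, rose 1.23-fold (adjusted p 0.000541), while Pltp, the phospholipid transfer protein, fell by 0.38 on the log2 scale (adjusted p 0.00105). Scd1, given above, is on this list as well. Of 6 measured genes of oxysterol and bile acid enzymes and the oxysterol receptor gene Gpr183, 1 rose and 2 fell (16.7% and 33.3%, against 25.2% and 22.9% of all genes). Hsd3b7, which acts on hydroxylated sterols, rose 1.27-fold (adjusted p 0.000283), and Cyp46a1 and Cyp39a1, sterol hydroxylases, fell by 0.78 and 0.30 (adjusted p 0.00191 and 0.0385).

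Branches around the core pathway were mixed too. Of 13 genes that process SREBP or carry out sterol-regulated degradation 4 rose and 1 fell (30.8% and 7.69%, against 25.2% and 22.9% of all genes). Sec24d, a coat protein of the vesicles that carry cargo to the Golgi, rose 1.48-fold (adjusted p 5.35e-05), and the sterol-binding endoplasmic reticulum proteins Erlin1 and Erlin2 rose 1.28- and 1.16-fold (adjusted p 0.000729 and 0.00641). Of 11 genes that use farnesyl or geranylgeranyl units for other products, 4 rose and 5 fell, with a median of -0.17. Those shares were 36.4% and 45.5%, against 25.2% and 22.9% of all genes. Nus1, a subunit of the dolichol synthase, rose 1.37-fold (adjusted p 1.4e-05), whereas Pdss2, of coenzyme Q synthesis, and Fnta, the farnesyltransferase alpha subunit, fell by 0.49 and 0.21 (adjusted p 0.000745 and 0.00332).

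**Figure D5:**
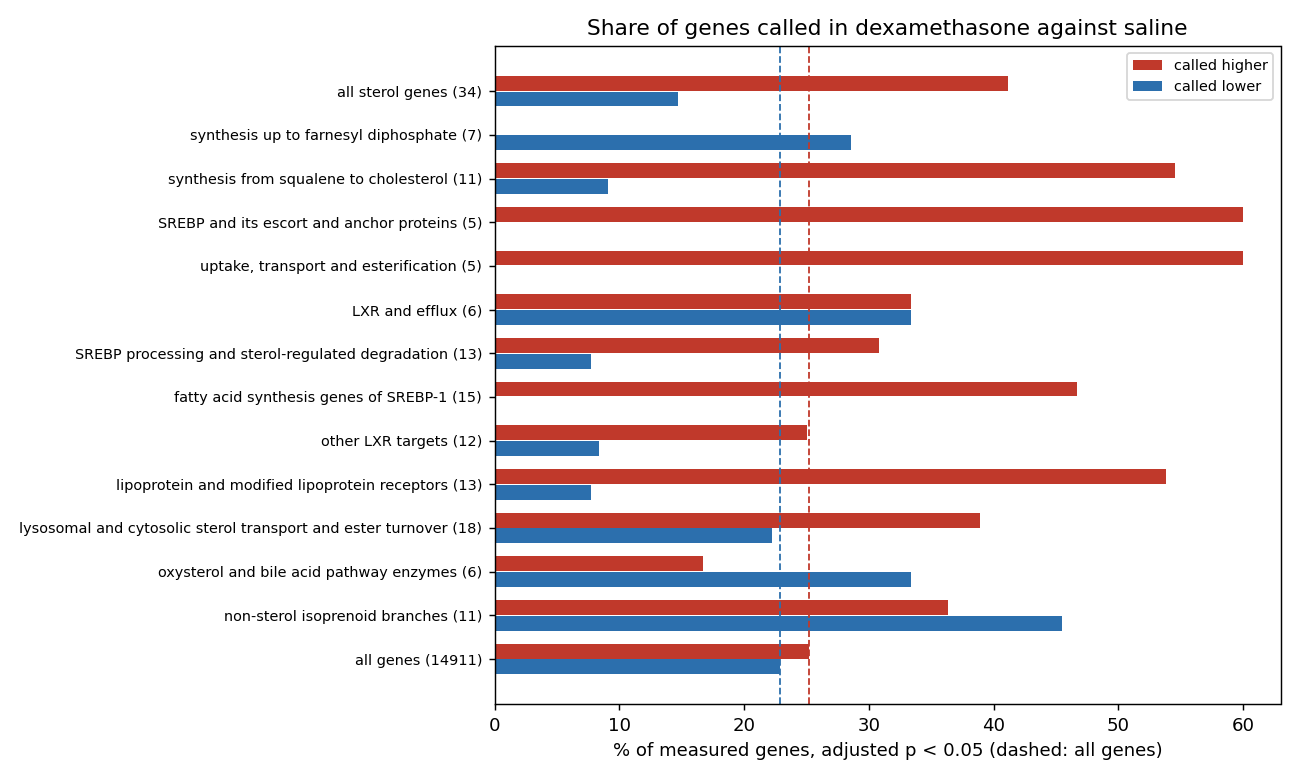
Share of measured genes called higher (red) or lower (blue) in dexamethasone against saline mice (x axis, percent) for the role lists, the other pathway lists and all genes (y axis, number measured in brackets); dashed lines mark all genes at 25.2% higher and 22.9% lower. Rises exceed the dashed line most in the SREBP list, the transport and esterification list, the squalene to cholesterol list and the receptors, and falls in the isoprenoid branches.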

How the data were processed

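Libraries of polyadenylated RNA from 9 dexamethasone and 4 saline mice were stranded, per the labels' protocols. Reads were counted with featureCounts 2.0.1 on mm10 and handled with limma 3.50.1, per the submitters' processing notes; the sources used here name no aligner, strand setting or filter. Values deposited by the authors are log2 CPM, with an offset of 0.5 reads over an effective library size, beside their own log2 fold changes and p-values. In the authors' deposited comparison, 19 of the 34 genes had an adjusted p under 0.05, the same number as here. Turned back into reads, 100% of values lay within 0.01 of whole numbers, 25531487 to 34942266 per library. The effective size was 0.99 to 1.10 times the reads in dexamethasone and 0.876 to 1.00 times in saline libraries. The table normalised without the excluded mouse, with 14911 genes, was used; 1 column of that mouse in the other table was not used.

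The test was limma 3.58.1 in R 4.3.3 with a trended prior, two-sided, with adjustment over all genes. Fold changes are differences between group means of log2 CPM. Log ratios were tested over all 715 splits, two-sided, and correlations over all pairings, in Python 3.11.15. The members and lists were chosen with earlier results of these data known. Per-mouse values were given for up to 4 genes per role list of smallest adjusted p and for 9 set genes, and up to 3 genes were named per other list, leaving out genes whose mean log2 CPM was below 0; exceptions are stated. Coordinates and promoter windows are RefSeq GRCm38.p6; exon lengths are GENCODE M21 unions, an annotation that may differ from the authors'. Tested on simulated libraries of the same 9 and 4 mice and 14911 genes, the fit recovered 99 of 100 genes changed by 1 and 36 of 100 changed by 0.5 on the log2 scale, with 4 false among 139 calls. Simulated counts came from the saline means with the same dispersion for every gene. Only those genes were changed, whereas 48.1% of all genes were called in the data, so these rates do not carry over to the real comparison. Pairs of libraries of 1 group differed by a chi-square per gene of at least 7.21, so each counted as 1 sample. Alternatives were the other table, quantile or median scaling, log2 of CPM plus 1, leaving out genes with mean log2 CPM below 1, other moderation or weights, voom, a block, marker covariates and each library left out. Figures were drawn with matplotlib 3.10.9.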

Additional observations from a re-analysis of the deposited data

Results flagged for a closer look

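In 8 of 68 groups of values (34 genes in 2 groups) the highest or lowest mouse stood far from the rest of its group, where chance flags about 1 in 20. All 8 were dexamethasone mouse 4 or saline mouse 1. Dexamethasone mouse 4 was highest for Sqle at 3.92 log2 CPM (the other 8 mice 2.97 to 3.41), for Cyp51 at 4.61 (3.68 to 4.10) and for Npc1 at 6.88 (6.34 to 6.55), and lowest for Dhcr7 at 3.78 (3.97 to 4.14). Without that mouse Sqle, Cyp51 and Npc1 still passed, at log2 fold changes of 0.63, 0.55 and 0.38. Saline mouse 1 was highest for Acat2 at 3.21 (the other 3 mice 2.66 to 2.68) and for Nsdhl at 3.71 (3.30 to 3.31). It was lowest for Ebp at 4.04 (4.19 to 4.22) and for Mylip at 5.33 (5.60 to 5.64). Without it Ebp still passed at 0.24, Nsdhl passed at 0.36, and Acat2 and Mylip had 0.27 and -0.15 with adjusted p values of 0.122 and 0.141 (limma).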

How the results depend on the processing

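With each library left out, sterol genes called higher numbered 14 to 16 and lower 4 to 6, and all genes called 6306 to 7173. Of the 19 calls 17 held in every such fit; Fdps and Mvk did not. Across 407 fits of single sterol genes under the other alternatives 397 kept their side of the threshold. In the others 5 calls were lost and 5 gained, and 0 reversed past the threshold. A gene that passed in neither fit counted among the 397 even if its sign changed. The macrophage covariate left 3219 calls over all genes, with 5 sterol genes higher and 2 lower, and the myofibre covariate 2974, with 4 higher and 2 lower; the cause was not tested. Npc2 was newly called lower in the macrophage fit and Fdft1 newly higher in the myofibre fit. On the 8 libraries numbered in both groups, 15 were higher and 4 lower with the number as a replicate block and, chosen after seeing the data, 15 and 3 without it; in both fits Abca1 passed at 0.39 and Apoe did not, and Abcg1, at -0.27 in both, did not pass without the block. Same-numbered mice had correlations of deviations from -0.094 to 0.20 and only 1 of 4 saline mice matched its own number best, so the numbers were not taken to pair mice. With dexamethasone library 4 and saline library 3 left out together, also chosen after seeing the data, 14 were higher and 4 lower. The correlation of Hmgcs1 and Sqle passed without dexamethasone mouse 4 (r of 0.80, exact permutation, adjusted p 0.0371), and leaving out single mice gave r of 0.61 to 0.80; that of Abca1 and Abcg1 gave 0.76 to 0.89. Hmgcs1, Idi1, Nsdhl and Pmvk each passed in some fits that left out 1 library, so their calls are not settled by these 13 libraries.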
